A study of Mus musculus with 36 samples.

Results

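Cardiomyocytes isolated from mouse hearts 7 days after a sham operation were compared with cardiomyocytes isolated at postnatal day 4 (P4), across the genes of the transcriptome. The 6 libraries, 3 of each group, were taken by their labels from the 36 of the series. It is a study of gene expression in newborn mouse hearts, in hearts regenerating after injury and in cardiomyocytes derived from embryonic stem cells. Both groups were primary cells of CD-1 mice, enriched on Miltenyi columns (magnetic cell separation), and the labels name no allele or drug in either. The age at the operation is not given in the labels, so the operation and the difference in age cannot be told apart. Nor do the labels say that each library came from a separate animal, and p-values therefore measure only the spread between these libraries, which may be technical. Xist, transcribed from the inactive X chromosome, lay between 11.8 and 31.9 FPKM in the day 7 sham libraries and between 32.1 and 62.5 FPKM in the P4 libraries. The Y-linked Ddx3y lay between 9.46 and 12.8 FPKM in the day 7 sham libraries and between 4.34 and 7.34 FPKM in the P4 libraries. Eif2s3y, also Y-linked, overlapped and was not higher, at 13.0 to 18.1 FPKM in day 7 sham and 16.1 to 23.0 FPKM in P4 libraries. Each of the 6 libraries held RNA of both sexes. Of 36128 gene models in the table, 12395 reached 1 FPKM in 2 or more of the 6 libraries and were tested. FPKM (fragments per kilobase of transcript per library size) is a level per length, so levels of different genes can be compared. Differences are given as log2(FPKM + 1), day 7 sham minus P4, a scale that understates the change of genes near 1 FPKM. Other groups appear only beside these: cardiomyocytes isolated 7 days after resection of heart tissue and at P0 (3 libraries each), and whole ventricular myocardium at P7, 7 days after a sham operation and at P4 (2 libraries each), all of the same mouse background.

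In the days after birth mouse cardiomyocytes change from growth by division to growth in size. The slow skeletal troponin I of the fetal sarcomere is replaced by the cardiac form, mitochondria multiply and fatty acids become the main fuel, while genes of mitosis and of the fetal heart are turned down. Immediate early genes, a set of transcription factors and feedback inhibitors that respond within minutes to growth factors, stretch and stress, need no new protein synthesis to be switched on and so also respond when cells are handled.

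The cells carried the markers of their label. All 8 cardiomyocyte markers in the table were tested, and their summed level lay between 9562 and 13053 FPKM in the day 7 sham libraries, against 17694 to 28117 FPKM in the P4 libraries. Markers of other cells were present as well. The 11 endothelial and endocardial markers summed to 424 to 477 FPKM in the day 7 sham libraries, against 24.2 to 257 FPKM in the P4 libraries, and the 8 erythroid markers to 3746 to 5275 FPKM, against 376 to 1673 FPKM. Fibroblast markers were uneven within a group, at 173, 226 and 1115 FPKM in day 7 sham libraries 1 to 3, against 123, 381 and 308 FPKM in P4 libraries 1 to 3. None of the lymphocyte, lung and liver markers passed the filter on low values. In the plot of marker levels, the cardiomyocyte, endothelial, erythroid, atrial and neutrophil levels of the 2 groups do not overlap. For each the exact two-sided permutation test gave p = 0.1, the smallest that 3 against 3 libraries allow. Neutrophil levels were low, with means of 0.67 in day 7 sham and 0.23 in P4 cells. Among single genes, replicates of the groups did not overlap in 50.2% of those tested. In bulk RNA fewer cells of a type and less RNA per cell cannot be told apart. Their part in the results that follow was not tested.

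**Figure D1:**
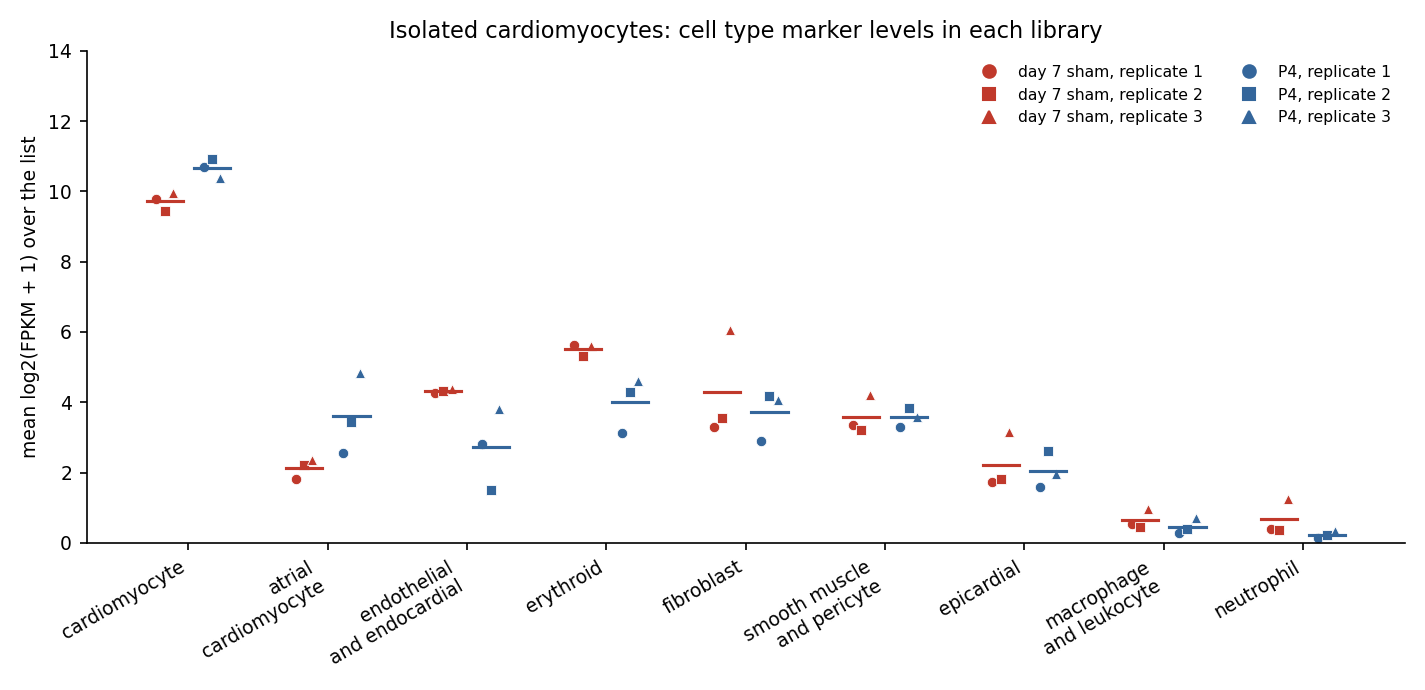
Mean log2(FPKM + 1) over the markers of 9 cell types (vertical axis) in each of the 3 day 7 sham libraries (red, left of each pair) and the 3 P4 libraries (blue, right), with the group mean as a line and the replicate number as the symbol. Cardiomyocyte markers averaged 9.73 in day 7 sham cells and 10.7 in P4 cells, endothelial markers 4.33 and 2.71, and erythroid markers 5.52 and 4.01.

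Other properties of the libraries also moved with the group. Transcripts of the mitochondrial genome made up 55.1%, 58.2% and 46.0% of the summed FPKM in day 7 sham libraries 1 to 3, against 37.0%, 36.7% and 42.4% in P4 libraries 1 to 3. The number of gene models at 1 FPKM or more was similar, 11288 to 12250 in day 7 sham and 11599 to 12079 in P4 libraries. Pearson correlations of log2(FPKM + 1) across genes were 0.971 to 0.988 between day 7 sham libraries, 0.951 to 0.967 between P4 libraries and 0.862 to 0.961 between the groups. P4 library 3 was the nearest of its group to the day 7 sham cells (0.950 to 0.961), and P4 library 2 the farthest (0.862 to 0.883). Depth per library is unknown from FPKM.

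Of the 12395 genes, 628 (5.07%) rose and 3398 (27.4%) fell in day 7 sham cells at an adjusted p under 0.05 (limma, two-sided), 32.5% in all. Replicates of the 2 groups did not overlap in 50.2% of genes. The median gene differed by -0.31, and each change has to be read against that shift, because FPKM are shares of a library. Scaling each library to its median gene (median of ratios) moved the median to -0.01 and the calls to 1540 higher (12.4%) and 724 lower (5.84%), 18.3% in all. Quantile normalization gave a median of -0.10 with 1231 higher (9.93%) and 1211 lower (9.77%), 19.7% in all. Under all 3 scalings 610 genes rose and 720 fell. When the libraries were scaled to their cardiomyocyte markers instead, the median became 0.44 and 1 gene passed (0.00807%). The markers used were Myh6, Tnnt2, Tnni3, Actc1, Ryr2, Pln, Myl2 and Myl3. Differences of these genes are thus held near 0 on average by that scaling. The calls also rest on single libraries. None remained without day 7 sham library 1, without day 7 sham library 2 or without P4 library 2, and 69 remained without P4 library 1, while 5380 passed without day 7 sham library 3 and 4129 without P4 library 3. Unadjusted p was under 0.05 for 5965 genes with all libraries, and for 4170 to 6789 genes when 1 of them was left out.

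**Figure D2:**
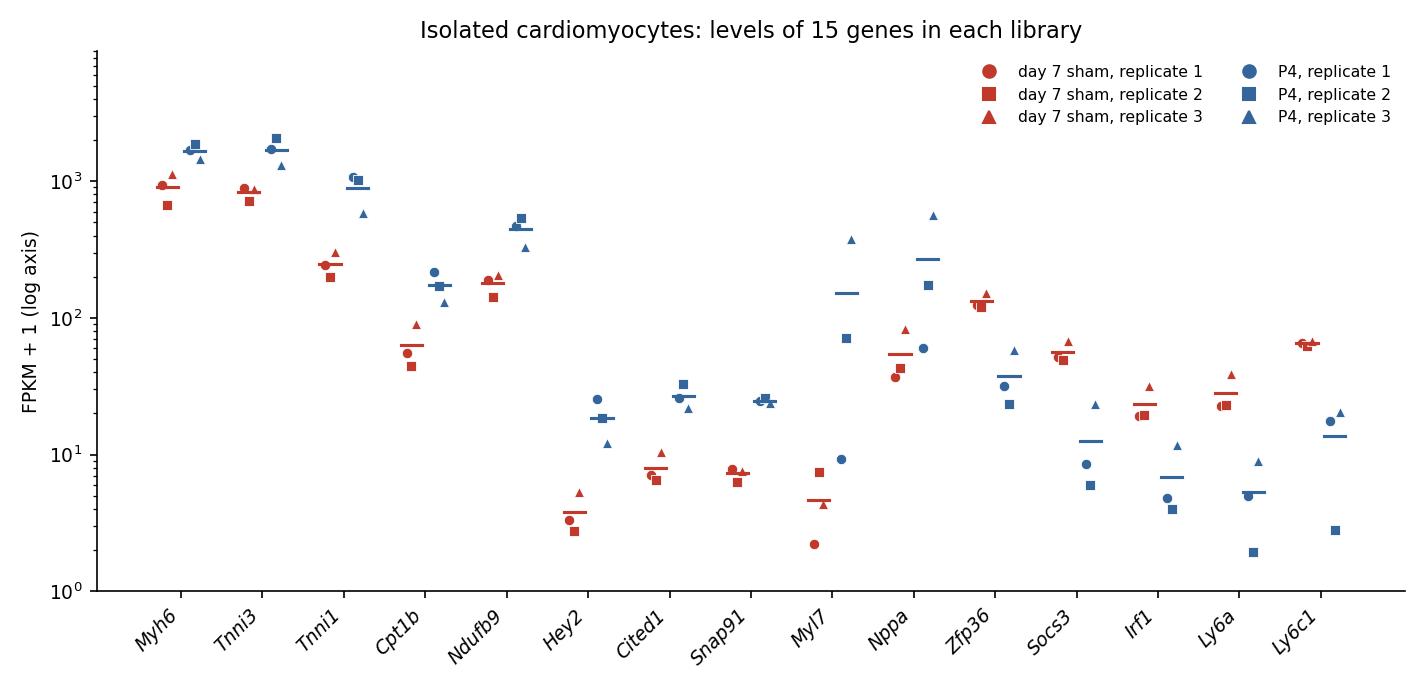
FPKM + 1 on a log axis for 15 genes in the 3 day 7 sham libraries (red, left of each pair) and the 3 P4 libraries (blue, right), with the group mean as a line and the replicate number as the symbol. Contractile, metabolic, developmental and atrial genes on the left are lower in day 7 sham cells, and the immediate early, interferon and vascular genes on the right are higher, with no overlap between the groups except in Nppa.

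Among contractile genes, the fetal troponin I gene differed more than its cardiac partner. Tnni1, which encodes the slow skeletal troponin I of the fetal heart, had 242, 199 and 302 FPKM in the day 7 sham libraries, against 1072, 1019.9 and 579.5 FPKM in the P4 libraries. The highest day 7 sham library was below the lowest P4 library (log2 difference -1.81 ± 0.30 SE, limma adjusted p = 0.0125), also under median of ratios, -1.43 with adjusted p = 0.0204, and quantile normalization, -1.33 with adjusted p = 0.0122. Tnni3, the cardiac troponin I, had 884, 720.0 and 880.4 FPKM in the day 7 sham libraries, against 1731, 2060.3 and 1316 FPKM in the P4 libraries. It fell too (log2 difference -1.02 ± 0.31 SE, limma adjusted p = 0.0282) but did not pass under median of ratios, -0.64 with adjusted p = 0.166, or quantile normalization, -0.33 with adjusted p = 0.0938. The log2 ratio of Tnni1 to Tnni3 within a library, in which a single factor per library cancels apart from the 1 FPKM added, was -1.86, -1.85 and -1.54 in day 7 sham libraries, against -0.69, -1.01 and -1.18 in P4 libraries. That difference of -0.79 separated the groups in all 6 libraries (exact permutation p = 0.1, the smallest possible), and it was -0.997 under quantile normalization, which does change ratios.

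Most sarcomere and Z-disc genes were lower, to a degree that depended on scaling. Of 30 genes tested, 23 fell and none rose, beside 27.4% of all genes lower, with a median of -0.98 beside -0.31 for all genes. Under median of ratios 1 rose and 7 fell (median -0.60), and under quantile normalization 8 fell (median -0.46). Under cardiomyocyte marker scaling none passed (median -0.05). That scaling uses Myh6, Tnnt2, Tnni3, Actc1, Myl2 and Myl3 of this same list, so a median near 0 is partly set by it. Myh6, the alpha myosin heavy chain of the adult mouse heart, had 940.5, 669 and 1124 FPKM in the day 7 sham libraries, against 1678, 1871 and 1442 FPKM in the P4 libraries. Myh7, the beta chain of the fetal heart, had 257, 190.3 and 346 FPKM in the day 7 sham libraries, against 836, 569 and 413 FPKM in the P4 libraries. Both fell (log2 difference -0.89, adjusted p = 0.0438 for Myh6 and -1.18, adjusted p = 0.0248 for Myh7, limma), and neither passed under the other 2 scalings. Their log2 ratio, Myh7 to Myh6, was -1.79 ± 0.0856 in day 7 sham cells and -1.51 ± 0.438 in P4 cells (SD, n = 3 each), with overlapping libraries (exact permutation p = 0.4). Myl2, the regulatory light chain of ventricular muscle and the most abundant of these transcripts, had 3567, 3066 and 3643 FPKM in the day 7 sham libraries, against 7199, 10519 and 5725 FPKM in the P4 libraries (log2 difference -1.15 ± 0.35 SE, limma adjusted p = 0.0294). Trim55, a ubiquitin ligase of the sarcomere, fell by more (33.4, 26.6 and 44.0 FPKM in day 7 sham, against 108, 105 and 78.8 FPKM in P4 libraries, log2 difference -1.48, adjusted p = 0.0143, limma) and kept its call under the other 2 scalings. Tnnc1, cardiac troponin C, had 517, 405 and 886 FPKM in the day 7 sham libraries, against 1386, 2306 and 952 FPKM in the P4 libraries (log2 difference -1.34 ± 0.39 SE, limma adjusted p = 0.0258). Neither Myl2 nor Tnnc1 passed under the other 2 scalings.

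Genes of the atrium and of the fetal and stressed ventricle included the largest decreases, and they were uneven among the P4 libraries. Myl7, the atrial myosin light chain, had 1.22, 6.46 and 3.35 FPKM in the day 7 sham libraries, against 8.27, 69.7 and 376 FPKM in the P4 libraries. Each day 7 sham library lay below every P4 library, and the P4 libraries themselves differed by more than an order of magnitude (log2 difference -3.92 ± 0.95 SE, limma adjusted p = 0.0181), and without 1 library at a time the difference lay between -5.30 and -2.62. Myl4, the other atrial light chain, ran the same way among libraries, with 3.71, 6.001 and 4.69 FPKM in the day 7 sham libraries, against 8.96, 45.9 and 211 FPKM in the P4 libraries (log2 difference -3.02 ± 0.77 SE, limma adjusted p = 0.0201). Sarcolipin, Sln, an atrial inhibitor of the calcium pump, was near the floor in day 7 sham cells (0, 1.01 and 0.191 FPKM in day 7 sham, against 1.09, 4.85 and 32.4 FPKM in P4 libraries, log2 difference -2.47, adjusted p = 0.0293, limma). Nppa, the atrial natriuretic peptide, had 35.9, 42.2 and 82.6 FPKM in the day 7 sham libraries, against 59.3, 174 and 567 FPKM in the P4 libraries, and the groups overlapped (log2 difference -1.83 ± 0.58 SE, limma adjusted p = 0.0336). For all 4 of these genes P4 library 1 was the lowest and P4 library 3 the highest of its group, and the level over the atrial marker list was 1.83, 2.21 and 2.36 in the day 7 sham libraries, against 2.55, 3.45 and 4.84 in the P4 libraries. The share of atrial tissue in a preparation was not tested. Of the 14 fetal and stress genes, 1 rose and 9 fell (median -0.96), beside 5.07% of all genes higher and 27.4% lower (median -0.31). Nppb, the brain natriuretic peptide of stressed ventricle, had 32.3, 20.8 and 44.9 FPKM in the day 7 sham libraries, against 55.3, 109.9 and 90.4 FPKM in the P4 libraries (log2 difference -1.37 ± 0.38 SE, limma adjusted p = 0.0236). Sln, Nppa and Nppb did not pass under the other 2 scalings. Ankrd1, a stress-responsive repeat protein of the sarcomere, was more even and fell under all 3 scalings (162, 149 and 188 FPKM in day 7 sham, against 396, 417 and 438 FPKM in P4 libraries, log2 difference -1.33, adjusted p = 0.0142, limma). Nes, the intermediate filament nestin of progenitor and vascular cells, was the member that rose, with 17.2, 20.01 and 27.0 FPKM in the day 7 sham libraries, against 3.36, 1.61 and 9.64 FPKM in the P4 libraries (log2 difference 2.15 ± 0.62 SE, limma adjusted p = 0.0253).

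Among calcium handling and channel genes, more fell than rose as deposited. Of 23 calcium handling genes 1 rose and 12 fell (median -0.73, with 3 higher and 2 lower under median of ratios). Of 23 ion channel and gap junction genes 1 rose and 10 fell (median -0.55, with 3 higher and 4 lower), beside 5.07% higher and 27.4% lower among all genes. Under cardiomyocyte marker scaling both medians turned positive, 0.16 and 0.27. Ryr2 and Pln of the calcium handling list are among the genes which that scaling uses. Slc8a1, the sodium-calcium exchanger that removes calcium at the surface membrane, had 29.9, 21.8 and 51.2 FPKM in the day 7 sham libraries, against 90.1, 127 and 99.9 FPKM in the P4 libraries, and it fell under all 3 scalings (log2 difference -1.66 ± 0.30 SE, limma adjusted p = 0.0142). Ryr2, the calcium release channel of the sarcoplasmic reticulum, had 23.7, 15.3 and 32.6 FPKM in the day 7 sham libraries, against 48.8, 48.3 and 45.1 FPKM in the P4 libraries (log2 difference -1.02 ± 0.30 SE, limma adjusted p = 0.0267), with no call under the other 2 scalings. Camk2a, a calcium-dependent kinase, fell (log2 difference -1.34, adjusted p = 0.0144, limma), and passed under the other 2 scalings too. Gja1, connexin 43 of the gap junction, had 117, 91.0 and 117 FPKM in the day 7 sham libraries, against 313, 236 and 194 FPKM in the P4 libraries (log2 difference -1.17 ± 0.25 SE, limma adjusted p = 0.0149). Fxyd1, the sodium pump regulator phospholemman, fell as well (log2 difference -1.26, adjusted p = 0.0181, limma), as deposited alone. The channel that rose was Kcna5, a voltage-gated potassium channel, with 7.16, 7.45 and 6.27 FPKM in the day 7 sham libraries, against 1.89, 0.998 and 3.85 FPKM in the P4 libraries (log2 difference 1.39 ± 0.40 SE, limma adjusted p = 0.0248).

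Among the 24 pathway lists, those of fatty acid use and of the respiratory chain had the lowest medians. Of 29 genes of fatty acid uptake and oxidation 25 fell and none rose (median -1.18), of 43 nuclear genes of the respiratory chain 41 fell (median -1.04), and of 24 genes of the TCA cycle and ketone use 22 fell (median -0.95). Among all genes 27.4% fell, with a median of -0.31. Most of the calls in these lists depended on the scaling. Under median of ratios 12.4% of all genes rose and 5.84% fell. Median of ratios left 3 lower and 1 higher for fatty acids, none for the respiratory chain and 1 lower for the TCA cycle, with medians of -0.81, -0.66 and -0.57, and under cardiomyocyte marker scaling the medians were -0.25, -0.11 and -0.04 with no gene past the threshold.

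**Figure D3:**
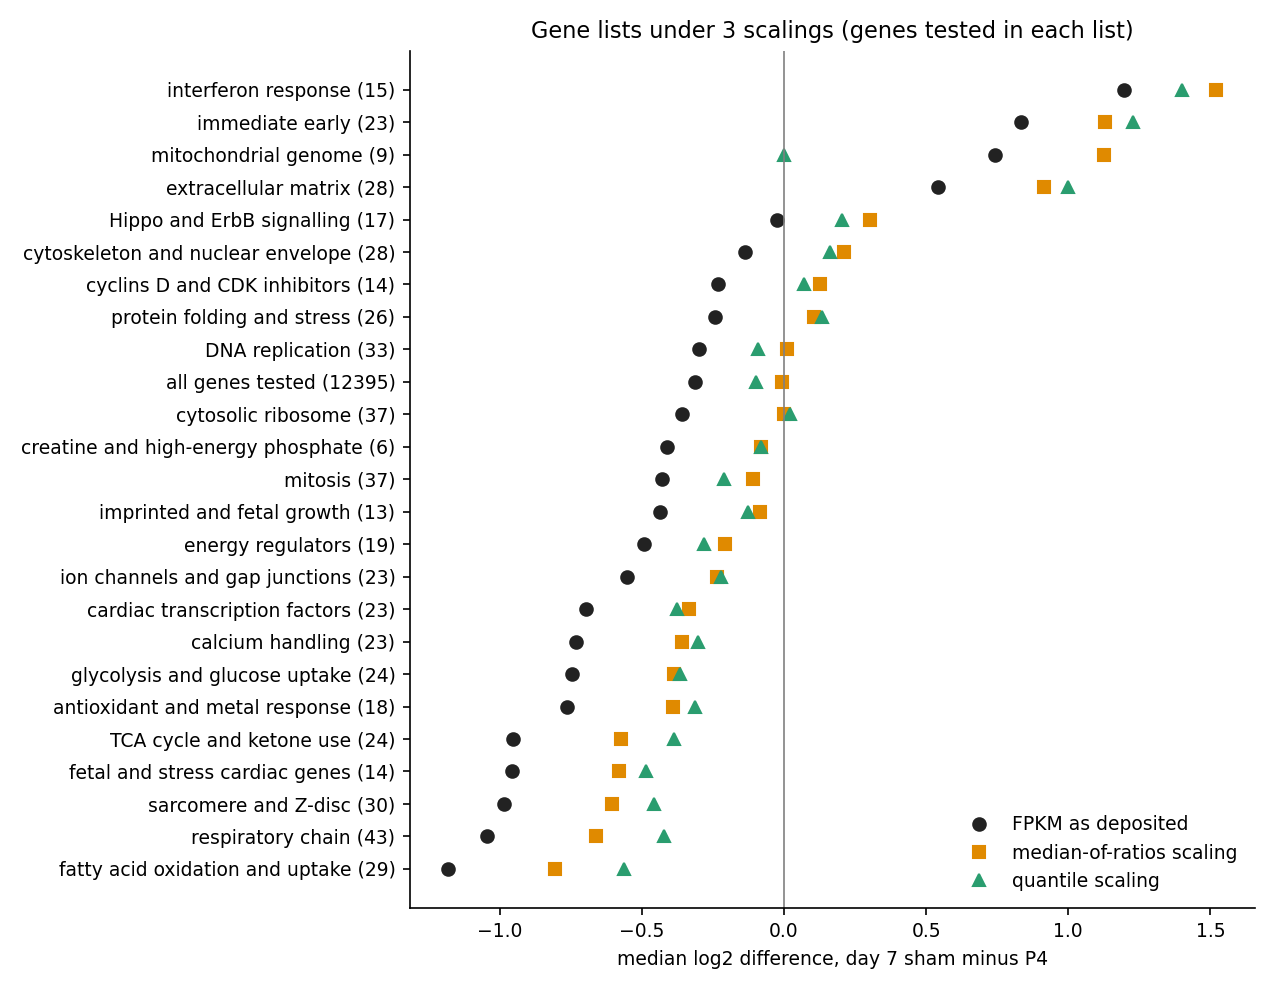
Median log2 difference, day 7 sham minus P4, of each pathway list with more than 5 tested genes and of all 12395 genes tested, from FPKM as deposited (black circles), after median-of-ratios scaling (orange squares) and after quantile normalization (green triangles), with the number of tested genes in brackets. Fatty acid oxidation (-1.18, -0.81 and -0.56) is lowest under all 3, and the interferon (1.197, 1.52 and 1.40) and immediate early lists (0.83, 1.13 and 1.23) are highest.

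Cpt1b, the muscle carnitine palmitoyltransferase that admits fatty acids to mitochondria, had 54.3, 43.8 and 89.7 FPKM in the day 7 sham libraries, against 217, 169 and 131 FPKM in the P4 libraries (log2 difference -1.48 ± 0.35 SE, limma adjusted p = 0.0177), with calls under the other 2 scalings too. Cpt1a, the liver and fetal form, had 9.13, 8.81 and 17.7 FPKM in the day 7 sham libraries, against 28.6, 16.9 and 15.5 FPKM in the P4 libraries, an overlapping range (log2 difference -0.75 ± 0.27 SE, limma adjusted p = 0.0515). The log2 ratio of Cpt1a to Cpt1b was higher in day 7 sham cells, at -2.45, -2.19 and -2.28, against -2.88, -3.25 and -2.99 in P4 cells (exact permutation p = 0.1, the smallest possible). Acsl1, which activates fatty acids with coenzyme A, had 53.5, 40.5 and 86.0 FPKM in the day 7 sham libraries, against 236, 169.9 and 113 FPKM in the P4 libraries (log2 difference -1.52 ± 0.37 SE, limma adjusted p = 0.0188). Acot2, a mitochondrial thioesterase, had 15.9, 15.3 and 31.1 FPKM in the day 7 sham libraries, against 111, 54.7 and 35.0 FPKM in the P4 libraries (log2 difference -1.56 ± 0.40 SE, limma adjusted p = 0.0203). Pdk4, which restrains glucose oxidation, had 19.97, 16.8 and 55.1 FPKM in the day 7 sham libraries, against 149, 66.8 and 47.9 FPKM in the P4 libraries (log2 difference -1.52 ± 0.47 SE, limma adjusted p = 0.0312). For Pdk4, P4 library 1 was the highest and day 7 sham library 3 overlapped the P4 range, and neither Acot2 nor Pdk4 passed under the other 2 scalings.

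The respiratory chain is shown by single genes of its complexes. Ndufb9, a complex I subunit, had 188, 142 and 205 FPKM in the day 7 sham libraries, against 467, 536 and 328 FPKM in the P4 libraries (log2 difference -1.298 ± 0.33 SE, limma adjusted p = 0.0199). Cox7b of complex IV differed by -1.24, adjusted p = 0.0167, and Ndufa9 of complex I by -1.204, adjusted p = 0.0181 (limma). Under median of ratios none of the 3 passed, and under quantile normalization Cox7b alone did. Cox8b, the heart and muscle subunit of complex IV, did not pass (182, 149.9 and 206 FPKM in day 7 sham, against 377, 386 and 269 FPKM in P4 libraries, log2 difference -0.93, adjusted p = 0.0556, limma). Transcripts from the mitochondrial genome itself gave positive estimates. All 9 tested had estimates above 0, with a median of 0.74, and 1 passed, mt-Nd4l (2.25, 3.02 and 1.21 FPKM in day 7 sham, against 0.450, 0.467 and 0.232 FPKM in P4 libraries, log2 difference 1.15, adjusted p = 0.0463, limma), which overlaps mt-Nd4 and whose reads the counting could have split. After median of ratios their median was 1.12 with none past the threshold, and after quantile normalization it was 0.00. Quantile normalization gives each rank the same value in every library, so it cannot show a change in transcripts that keep their ranks. In the ratio of a mitochondrial to a nuclear transcript of one complex a single factor per library cancels as well. For mt-Co2 over Cox5a (complex IV) the log2 ratio was 8.42, 8.93 and 7.88 in day 7 sham libraries, against 6.64, 6.49 and 7.21 in P4 libraries. For mt-Cytb over Uqcrc2 (complex III) it averaged 8.27 in day 7 sham cells and 6.34 in P4 cells. Groups were separate in both ratios (exact permutation p = 0.1 each, the smallest possible). Quantile normalization took the difference between the groups to 0.27 for mt-Co2 over Cox5a, against 1.63 as deposited, and to 0.40 for mt-Cytb over Uqcrc2, against 1.93. The same limit of quantile normalization applies to these ratios. mt-Co1 was listed at 0 in all 6 libraries, while it reached 17351 FPKM or more in ventricle libraries at P4, so the mitochondrial values of the isolated cells are incomplete.

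Glucose use and the energy regulators gave smaller shares of calls than the fatty acid and respiratory chain lists. Among all genes 5.07% rose and 27.4% fell (median -0.31). The share of glycolysis genes that fell was larger than that, and the share of energy regulators near it. Of 24 genes of glycolysis and glucose uptake 1 rose and 14 fell (median -0.75, with 1 higher and 3 lower under median of ratios and a median of 0.07 under cardiomyocyte marker scaling). Aldoc, aldolase C, fell under all 3 scalings, at low levels (0.323, 0.376 and 0.776 FPKM in day 7 sham, against 2.94, 2.63 and 2.24 FPKM in P4 libraries, log2 difference -1.28, adjusted p = 0.00858, limma). Pfkfb3, which makes the activator of phosphofructokinase, was the member that rose (2.80, 3.79 and 5.10 FPKM in day 7 sham, against 0.712, 0.790 and 1.85 FPKM in P4 libraries, log2 difference 1.22, adjusted p = 0.0211, limma). Eno3, the muscle enolase, had 253, 206 and 282 FPKM in the day 7 sham libraries, against 525, 665 and 447 FPKM in the P4 libraries (log2 difference -1.13 ± 0.31 SE, limma adjusted p = 0.0222). The fetal glucose transporter Slc2a1 did not pass (1.67, 2.11 and 4.13 FPKM in day 7 sham, against 3.28, 5.08 and 4.45 FPKM in P4 libraries, log2 difference -0.58, adjusted p = 0.084, limma). The insulin-responsive Slc2a4 fell (20.7, 15.02 and 28.3 FPKM in day 7 sham, against 39.6, 41.5 and 36.4 FPKM in P4 libraries, log2 difference -0.89, adjusted p = 0.0415, limma). Their ratio overlapped between the groups (exact permutation p = 0.3). Ckm, the muscle creatine kinase, fell (408, 324 and 415 FPKM in day 7 sham, against 801, 1077 and 665 FPKM in P4 libraries, log2 difference -1.13, adjusted p = 0.0219, limma). Ckb, the brain form, did not pass (9.56, 9.68 and 17.2 FPKM in day 7 sham, against 12.3, 28.9 and 23.0 FPKM in P4 libraries, log2 difference -0.74, adjusted p = 0.0731, limma). Ak1, an adenylate kinase, fell (log2 difference -0.85, adjusted p = 0.0248, limma). Eno3, Slc2a4 and Ak1 lost their calls under both other scalings, and Ckm under median of ratios. Among 19 energy regulators 1 rose and 6 fell (median -0.49, and 0.30 under cardiomyocyte marker scaling). Ppargc1a, the coactivator of mitochondrial gene expression, had 8.87, 5.54 and 10.6 FPKM in the day 7 sham libraries, against 23.8, 20.6 and 14.7 FPKM in the P4 libraries (log2 difference -1.16 ± 0.23 SE, limma adjusted p = 0.0143). Prox1, a homeobox factor of muscle and lymphatic cells, had 4.27, 3.88 and 5.77 FPKM in the day 7 sham libraries, against 13.8, 11.7 and 10.0 FPKM in the P4 libraries (log2 difference -1.19 ± 0.21 SE, limma adjusted p = 0.0142). Pparg, the fatty acid receptor of fat and endothelial cells, rose (4.72, 4.87 and 7.06 FPKM in day 7 sham, against 1.44, 0.244 and 2.24 FPKM in P4 libraries, log2 difference 1.59, adjusted p = 0.02, limma). The calls of these last 3 genes held under all 3 scalings.

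Developmental regulators included decreases that passed under all 3 scalings. Hey2, a Notch target and repressor that patterns the compact ventricular wall, had 2.30, 1.75 and 4.36 FPKM in the day 7 sham libraries, against 24.4, 17.4 and 11.2 FPKM in the P4 libraries. Every P4 library was above every day 7 sham library (log2 difference -2.29 ± 0.30 SE, limma adjusted p = 0.00858), and the difference stayed between -2.57 and -2.04 without any 1 library. Its relative Hey1 rose (6.12, 7.63 and 5.82 FPKM in day 7 sham, against 0.811, 0.612 and 3.85 FPKM in P4 libraries, log2 difference 1.63, adjusted p = 0.0258, limma). Gata4, a cardiac transcription factor, had 21.9, 19.2 and 34.9 FPKM in the day 7 sham libraries, against 61.5, 55.0 and 46.5 FPKM in the P4 libraries (log2 difference -1.11 ± 0.23 SE, limma adjusted p = 0.0143). In the list of 23 cardiac transcription factors 1 rose and 13 fell (median -0.70), beside 5.07% of all genes higher and 27.4% lower. Under median of ratios 2 rose and 7 fell (median -0.34), under quantile normalization 2 rose and 8 fell, and under cardiomyocyte marker scaling none passed and the median was 0.19. Cited1, a transcriptional coactivator, had 6.12, 5.57 and 9.42 FPKM in the day 7 sham libraries, against 25.0, 31.8 and 20.7 FPKM in the P4 libraries (log2 difference -1.75 ± 0.24 SE, limma adjusted p = 0.00858). Bmp7, a secreted bone morphogenetic protein, had 1.21, 0.788 and 2.30 FPKM in the day 7 sham libraries, against 6.98, 8.07 and 5.63 FPKM in the P4 libraries (log2 difference -1.73 ± 0.25 SE, limma adjusted p = 0.00858). Plagl1, an imprinted zinc finger factor, and Igf2bp3, a fetal RNA-binding protein, fell as well (log2 difference -1.15, adjusted p = 0.0211 for Plagl1 and -0.78, adjusted p = 0.0158 for Igf2bp3, limma), Plagl1 only as deposited. These were, with Cited1, the 3 of 13 imprinted and fetal growth genes that fell, a share near the 27.4% of all genes, and none rose. Igf2, the fetal growth factor, overlapped between the groups (169, 186 and 224 FPKM in day 7 sham, against 146, 109 and 209.7 FPKM in P4 libraries, log2 difference 0.35, adjusted p = 0.605, limma).

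Snap91, Ppp1r1b and Bex1 were also among the 12 largest decreases. Snap91, a clathrin assembly protein of synapses, had 6.86, 5.34 and 6.64 FPKM in the day 7 sham libraries, against 23.7, 24.9 and 22.9 FPKM in the P4 libraries (log2 difference -1.78 ± 0.21 SE, limma adjusted p = 0.00858), and its difference lay between -1.83 and -1.68 without any 1 library. Ppp1r1b, an inhibitor of protein phosphatase 1, had 1.92, 1.60 and 2.36 FPKM in the day 7 sham libraries, against 7.41, 13.7 and 7.86 FPKM in the P4 libraries (log2 difference -1.81 ± 0.25 SE, limma adjusted p = 0.00858). Bex1, a small X-linked protein of neurons, had 5.24, 3.53 and 7.48 FPKM in the day 7 sham libraries, against 19.1, 25.9 and 15.04 FPKM in the P4 libraries (log2 difference -1.73 ± 0.24 SE, limma adjusted p = 0.00858). Scd4, a stearoyl-CoA desaturase of heart, and Serpinb6b, a protease inhibitor, completed the 12 largest (log2 difference -2.01, adjusted p = 0.0143 for Scd4 and -1.72, adjusted p = 0.0143 for Serpinb6b, limma). All 5 passed under the 3 scalings. Of 17 genes of Hippo and ErbB signalling 4 fell and none rose (median -0.03, and 0.30 under median of ratios with 6 higher and 3 lower), a share near the 27.4% of all genes called lower. Erbb4 and Erbb2, the paired receptors for neuregulin on cardiomyocytes, and Ctgf, a secreted Hippo target, were among them (log2 difference -1.01, adjusted p = 0.0143, -0.98, adjusted p = 0.0143 and -1.12, adjusted p = 0.0143, limma).

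The cell cycle list moved little more than the median gene. Of 37 mitosis genes 5 fell and none rose (median -0.43, -0.11 under median of ratios and 0.36 under cardiomyocyte marker scaling). Of 33 DNA replication genes 3 fell (median -0.30, 0.01 and 0.47). The shares called lower, against 27.4% of all genes, do not set these lists apart. Hmmr, a spindle-associated protein, had 3.18, 3.12 and 6.42 FPKM in the day 7 sham libraries, against 6.85, 10.5 and 10.0 FPKM in the P4 libraries (log2 difference -0.99 ± 0.25 SE, limma adjusted p = 0.0201). Kif20a, a kinesin of cell division, had 3.79, 3.63 and 7.19 FPKM in the day 7 sham libraries, against 7.74, 10.4 and 9.73 FPKM in the P4 libraries (log2 difference -0.85 ± 0.21 SE, limma adjusted p = 0.0191). Both were called under all 3 scalings. Spc25 of the kinetochore, Rfc4 of the clamp loader and Rrm1 of ribonucleotide reductase passed as deposited and not under median of ratios (log2 difference -0.72, adjusted p = 0.0486, -0.85, adjusted p = 0.0464 and -0.81, adjusted p = 0.0355, limma). Mki67, the marker of cycling cells, had 6.49, 5.75 and 10.7 FPKM in the day 7 sham libraries, against 5.45, 7.27 and 12.96 FPKM in the P4 libraries. Ccnb1, the cyclin of mitotic entry, had 2.49, 2.03 and 5.22 FPKM in the day 7 sham libraries, against 3.43, 5.15 and 4.83 FPKM in the P4 libraries. Neither passed (log2 difference -0.11, adjusted p = 0.785 for Mki67 and -0.42, adjusted p = 0.169 for Ccnb1, limma). Among 14 D cyclins and cyclin kinase inhibitors the antiproliferative Btg2 rose and none fell, beside 5.07% of all genes higher.

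The pathway list with the most increases was that of immediate early genes. Of 23 tested, 12 rose (5.07% of all genes did) and none fell, with a median of 0.83. Under median of ratios 20 rose, beside 12.4% of all genes, and under quantile normalization 19, beside 9.93%. Zfp36, which speeds the decay of cytokine mRNAs, had 124, 119 and 152 FPKM in the day 7 sham libraries, against 30.5, 22.4 and 57.4 FPKM in the P4 libraries. All day 7 sham libraries were above all P4 libraries (log2 difference 1.91 ± 0.38 SE, limma adjusted p = 0.0143). Klf2, a factor induced by flow in endothelium, had 61.0, 65.1 and 70.0 FPKM in the day 7 sham libraries, against 15.98, 8.36 and 28.8 FPKM in the P4 libraries (log2 difference 1.98 ± 0.52 SE, limma adjusted p = 0.0211). Fosl2, a Fos relative, had 19.2, 18.4 and 27.6 FPKM in the day 7 sham libraries, against 4.04, 3.34 and 10.2 FPKM in the P4 libraries (log2 difference 1.84 ± 0.41 SE, limma adjusted p = 0.0153). Junb, a partner of Fos factors, had 104, 99.97 and 150.4 FPKM in the day 7 sham libraries, against 38.1, 23.0 and 67.6 FPKM in the P4 libraries (log2 difference 1.55 ± 0.42 SE, limma adjusted p = 0.0223). In these 3 too the groups were separate. Atf3, a stress-induced factor, had 51.7, 43.5 and 62.1 FPKM in the day 7 sham libraries, against 19.9, 15.1 and 27.8 FPKM in the P4 libraries (log2 difference 1.31 ± 0.37 SE, limma adjusted p = 0.024). The antiproliferative Btg2 had 44.6, 43.6 and 59.0 FPKM in the day 7 sham libraries, against 25.7, 20.1 and 31.4 FPKM in the P4 libraries (log2 difference 0.91 ± 0.27 SE, limma adjusted p = 0.0272). Dusp1, a MAP kinase phosphatase, had 79.1, 77.0 and 106 FPKM in the day 7 sham libraries, against 47.1, 32.4 and 57.8 FPKM in the P4 libraries (log2 difference 0.94 ± 0.34 SE, limma adjusted p = 0.0485). P4 library 3 was the highest of its group in each and came nearest to the day 7 sham cells. The founding members Fos and Egr1 did not pass as deposited. Fos had 162, 154 and 249 FPKM in the day 7 sham libraries, against 114, 90.7 and 147 FPKM in the P4 libraries (log2 difference 0.67, adjusted p = 0.136, limma). Egr1 had 104, 89.7 and 161 FPKM in the day 7 sham libraries, against 68.3, 58.2 and 94.9 FPKM in the P4 libraries (log2 difference 0.66, adjusted p = 0.142, limma). Both passed under median of ratios (log2 difference 1.05 with adjusted p = 0.0292 for Fos and 1.04 with adjusted p = 0.0311 for Egr1, limma). All 23 genes were highest in library 3 within each group.

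Among 15 tested interferon response genes 3 rose, beside 5.07% of all genes. All 15 had estimates above 0, with a median of 1.197 beside -0.31 for all genes, and none fell. Under median of ratios 6 rose, beside 12.4% of all genes. Irf1, a transcription factor induced by interferon gamma, had 18.3, 18.5 and 30.9 FPKM in the day 7 sham libraries, against 3.79, 2.98 and 10.7 FPKM in the P4 libraries (log2 difference 1.91 ± 0.49 SE, limma adjusted p = 0.0201). Ifitm3, an antiviral membrane protein, had 54.5, 52.7 and 80.3 FPKM in the day 7 sham libraries, against 10.4, 6.45 and 30.6 FPKM in the P4 libraries (log2 difference 2.17 ± 0.51 SE, limma adjusted p = 0.0176). H2-D1, a class I histocompatibility gene whose reads can be shared with its close relatives, had 49.6, 60.2 and 73.9 FPKM in the day 7 sham libraries, against 14.7, 7.91 and 28.5 FPKM in the P4 libraries (log2 difference 1.94 ± 0.64 SE, limma adjusted p = 0.0374). No day 7 sham library of these 3 genes overlapped a P4 library. Socs3, the feedback inhibitor of cytokine signalling through JAK and STAT, had 50.9, 48.5 and 66.6 FPKM in the day 7 sham libraries, against 7.55, 4.96 and 22.4 FPKM in the P4 libraries (log2 difference 2.39 ± 0.48 SE, limma adjusted p = 0.0143). Cebpd, an acute-phase transcription factor, had 27.4, 25.7 and 40.0 FPKM in the day 7 sham libraries, against 4.43, 2.41 and 13.02 FPKM in the P4 libraries (log2 difference 2.30 ± 0.49 SE, limma adjusted p = 0.0144). Ifi203, an interferon-inducible nuclear protein, had 16.4, 21.7 and 16.4 FPKM in the day 7 sham libraries, against 2.76, 0.636 and 8.36 FPKM in the P4 libraries (log2 difference 2.30 ± 0.63 SE, limma adjusted p = 0.0223).

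Promoters of 4 of these genes show the letters that signalling through STAT, CREB and serum response factors is known to use. The 250 bases before the gene start, from RefSeq (GRCm38.p6), are printed 5′ to 3′ on the gene's strand, with capitals marking a GAS motif (TTCNNNGAA, a STAT site), a CRE (TGACGTCA) or a CArG box (serum response factor). Zfp36 lies at chr7:28379229-28379478 (minus strand), with a CArG box starting 58 bases and a GAS motif 17 bases before the start. Irf1 lies at chr11:53769764-53770013 (plus strand), with a GAS motif 90 bases before the start. Socs3 lies at chr11:117969367-117969616 (minus strand), with a GAS motif 154 bases before the start, and Btg2 at chr1:134079156-134079405 (minus strand), with a CRE 166 bases before it.
Zfp36: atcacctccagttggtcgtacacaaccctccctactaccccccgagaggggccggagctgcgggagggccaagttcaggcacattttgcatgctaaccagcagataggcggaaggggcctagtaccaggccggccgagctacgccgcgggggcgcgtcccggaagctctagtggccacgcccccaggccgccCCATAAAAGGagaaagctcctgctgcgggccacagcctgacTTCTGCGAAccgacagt
Irf1: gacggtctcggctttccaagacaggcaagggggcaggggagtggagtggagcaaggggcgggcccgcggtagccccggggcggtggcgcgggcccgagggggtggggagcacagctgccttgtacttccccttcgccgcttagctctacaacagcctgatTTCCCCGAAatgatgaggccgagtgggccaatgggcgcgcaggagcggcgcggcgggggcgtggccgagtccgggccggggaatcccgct
Socs3: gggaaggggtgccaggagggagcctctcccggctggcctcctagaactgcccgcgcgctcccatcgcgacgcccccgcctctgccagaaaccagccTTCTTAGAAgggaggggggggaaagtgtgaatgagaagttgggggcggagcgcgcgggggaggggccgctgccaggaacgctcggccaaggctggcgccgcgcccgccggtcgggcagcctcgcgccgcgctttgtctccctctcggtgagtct
Btg2: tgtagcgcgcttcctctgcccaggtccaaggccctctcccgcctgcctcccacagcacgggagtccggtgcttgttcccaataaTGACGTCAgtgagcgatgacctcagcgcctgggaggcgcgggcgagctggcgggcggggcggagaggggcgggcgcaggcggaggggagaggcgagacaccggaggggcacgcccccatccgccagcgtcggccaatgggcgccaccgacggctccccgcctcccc
Searched on both strands were the windows of 27025 genes, each with the 250 bases before the start and the 50 after it, and a CRE was found in 1.88%, a GAS motif in 8.47% and a CArG box in 1.57%. Of the 12 immediate early genes that rose, 10 had a window, with a CRE in 2 (Btg2 and Dusp1) and a GAS motif and a CArG box in 1 (Zfp36). Of the 3 interferon genes that rose, 2 held a GAS motif (Ifitm3 and Irf1), as did 4 of the 14 tested with a window. The 4 genes printed were chosen after their values and letters were seen, and a match of letters does not show binding.

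The 2 largest increases were in Ly6c1 and Ly6a, surface proteins of endothelial and progenitor cells. Ly6c1 had 64.9, 61.7 and 67.0 FPKM in the day 7 sham libraries, against 16.7, 1.82 and 19.4 FPKM in the P4 libraries (log2 difference 2.70 ± 0.81 SE, limma adjusted p = 0.0283). Ly6a had 21.6, 21.9 and 37.6 FPKM in the day 7 sham libraries, against 3.98, 0.928 and 8.03 FPKM in the P4 libraries (log2 difference 2.62 ± 0.58 SE, limma adjusted p = 0.0152). P4 library 2 was the lowest for both, and without 1 library at a time the differences lay between 1.78 and 3.21 for Ly6c1 and between 2.02 and 3.13 for Ly6a. Podxl, a sialomucin of endothelium and kidney, had 45.5, 47.0 and 46.8 FPKM in the day 7 sham libraries, against 9.67, 1.77 and 22.1 FPKM in the P4 libraries (log2 difference 2.43 ± 0.85 SE, limma adjusted p = 0.0444). Thbd, the thrombin receptor thrombomodulin, had 22.3, 21.1 and 27.7 FPKM in the day 7 sham libraries, against 4.03, 1.70 and 8.43 FPKM in the P4 libraries (log2 difference 2.28 ± 0.57 SE, limma adjusted p = 0.0192). Kitl, the ligand of the Kit receptor, was even in day 7 sham cells (52.2, 52.5 and 52.4 FPKM in day 7 sham, against 9.60, 4.06 and 23.2 FPKM in P4 libraries, log2 difference 2.29, adjusted p = 0.0267, limma). Nts, the peptide neurotensin, Slfn5, a Schlafen protein, Sgk1, a hormone-regulated kinase, and Shank3, a scaffold protein, completed the 12 largest (log2 difference 2.40, adjusted p = 0.0337, 2.42, adjusted p = 0.0199, 2.28, adjusted p = 0.0407 and 2.28, adjusted p = 0.0461, limma). Podxl did not pass under quantile normalization, nor Shank3 under either of the other 2 scalings. In each of these 9 genes and in Socs3, Cebpd and Ifi203, P4 library 2 was the lowest and P4 library 3 the highest of the P4 group, which is the order of the endothelial marker level in those libraries (2.81, 1.52 and 3.81 in P4 libraries 1 to 3, against 4.27, 4.33 and 4.38 in the day 7 sham libraries). The same order of P4 libraries held in Zfp36, Junb, Atf3, Btg2, Dusp1, Fos, Egr1, Irf1, Ifitm3 and H2-D1. The order is thus not particular to the genes with the largest increases. Over all genes too, P4 library 2 was the farthest from the day 7 sham cells and P4 library 3 the nearest. What set this order was not tested. None of the 10 endothelial markers tested passed (median 1.96), and all 10 had estimates above 0. Flt1, a VEGF receptor, had 20.7, 20.7 and 24.3 FPKM in the day 7 sham libraries, against 4.15, 1.03 and 12.51 FPKM in the P4 libraries (log2 difference 2.13 ± 0.79 SE, limma adjusted p = 0.0532). Vwf, von Willebrand factor, had 7.93, 8.74 and 9.60 FPKM in the day 7 sham libraries, against 1.66, 0.516 and 6.68 FPKM in the P4 libraries (log2 difference 1.63 ± 0.63 SE, limma adjusted p = 0.0594). Fabp4, a fatty acid carrier of capillary endothelium and fat, had 790.3, 869 and 939 FPKM in the day 7 sham libraries, against 245, 54.1 and 465 FPKM in the P4 libraries (log2 difference 2.23 ± 0.96 SE, limma adjusted p = 0.0838). The groups did not overlap in these 3, and the P4 libraries were uneven. Of the 8 adipocyte markers, 6 were under 0.1 FPKM in all 6 libraries. The erythroid genes Alas2 and Hba-a1 did not pass either (log2 difference 2.25, adjusted p = 0.0796 and 2.29, adjusted p = 0.115, limma). The part of endothelial and blood cells in these increases was not tested.

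The remaining lists gave few calls or calls in both directions, where 5.07% of all genes rose and 27.4% fell (median -0.31). Of 28 extracellular matrix genes 2 rose and none fell, beside 5.07% of all genes called higher. They were Col15a1, a collagen of vascular basement membranes (log2 difference 1.71, adjusted p = 0.045, limma), and Sparc, a matrix glycoprotein (log2 difference 1.07, adjusted p = 0.0325, limma). Of 28 cytoskeletal and nuclear envelope genes 3 rose and 4 fell. Non-muscle myosin Myh9 was higher (26.8, 27.6 and 38.4 FPKM in day 7 sham, against 7.998, 6.15 and 20.8 FPKM in P4 libraries, log2 difference 1.49, adjusted p = 0.0331, limma) and the fetal tubulin Tubb2b and the talin Tln2 lower (log2 difference -1.26, adjusted p = 0.0149 and -1.06, adjusted p = 0.0144, limma). Among 18 antioxidant and metal response genes 1 rose and 9 fell (median -0.76). They included Txnip, an inhibitor of thioredoxin (72.7, 72.5 and 118 FPKM in day 7 sham, against 383, 188 and 159 FPKM in P4 libraries, log2 difference -1.39, adjusted p = 0.015, limma), and the metallothioneins Mt1 and Mt2 (log2 difference -1.38, adjusted p = 0.0149 and -1.26, adjusted p = 0.0417, limma). Txnip lost its call under quantile normalization and Mt2 under both other scalings. Of 26 protein folding and stress genes 1 rose, Atf3, and 8 fell, among them the mitochondrial chaperone Hspd1 and Herpud1 of the endoplasmic reticulum (log2 difference -1.03, adjusted p = 0.0192 and -1.02, adjusted p = 0.0149, limma), Hspd1 as deposited alone. Of 37 cytosolic ribosomal protein genes 6 fell and none rose (median -0.36, and 0.00 under median of ratios), a smaller share than the 27.4% of all genes called lower. Rpl30, Rpl38 and Rps27l were among the 6 (log2 difference -0.98, adjusted p = 0.0223, -0.81, adjusted p = 0.0188 and -0.72, adjusted p = 0.0281, limma), and none of these 3 passed under the other 2 scalings. Multiple processed pseudogenes make ribosomal values uncertain. Rpl3 and its muscle paralog Rpl3l, which replaces it in adult heart, did not pass (log2 difference -0.28, adjusted p = 0.254 and -0.09, adjusted p = 0.79, limma), with positive estimates for both under median of ratios, 0.03 with adjusted p = 0.915 and 0.26 with adjusted p = 0.506. Single markers of other cells gave little. Wt1, of epicardium, rose (7.59, 8.45 and 13.1 FPKM in day 7 sham, against 1.93, 2.65 and 6.24 FPKM in P4 libraries, log2 difference 1.295, adjusted p = 0.0293, limma). It was the only 1 of 9 epicardial markers tested to pass. Of those markers 4 had estimates above 0 and 5 below, with a median of -0.005. Abcc9, a potassium channel subunit of muscle and pericytes, and Tnni2, the fast skeletal troponin I, fell (log2 difference -0.92, adjusted p = 0.0288 and -0.96, adjusted p = 0.0146, limma), Abcc9 as deposited alone. Of 9 smooth muscle and pericyte markers tested, Abcc9 alone passed, and 4 had estimates above 0 and 5 below. No fibroblast, macrophage or neutrophil marker passed, and Pi16, Lum, Cd14, Lyz2, S100a8 and S100a9 were each highest in day 7 sham library 3.

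Whole ventricle at P7 and P4 was measured in libraries that share none with the isolated cells. P7 and P4 ventricle differed, with no operation named in the labels, at fewer genes, with 84 genes higher (0.678%) and 152 lower (1.23%), 1.9% in all (limma, adjusted p under 0.05, 2 libraries each). Y-linked Ddx3y was near 0 in both P7 ventricle libraries (0.0778 and 0.214 FPKM), against 0.182 and 13.2 FPKM in the P4 ventricle libraries, so sex was not balanced there. Of the isolated and ventricle calls 87 genes were shared. They were 36.9% of the ventricle list, beside 32.5% of all genes called in isolated cells. They were 2.16% of the isolated list, beside 1.9% of all genes called in ventricle. Counted without direction, the overlap was thus near the background. Of the 87, 80 had the same direction, 26 higher and 54 lower. Of the 84 genes higher in ventricle, 26 were higher in isolated cells, a larger share than the 5.07% of all genes. Of the 152 lower in ventricle, 54 were lower in isolated cells, beside 27.4% of all genes. Across all 12395 genes the 2 sets of differences had a Pearson r of 0.230 and a Spearman rho of 0.165, a description across genes, which are not independent.

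**Figure D4:**
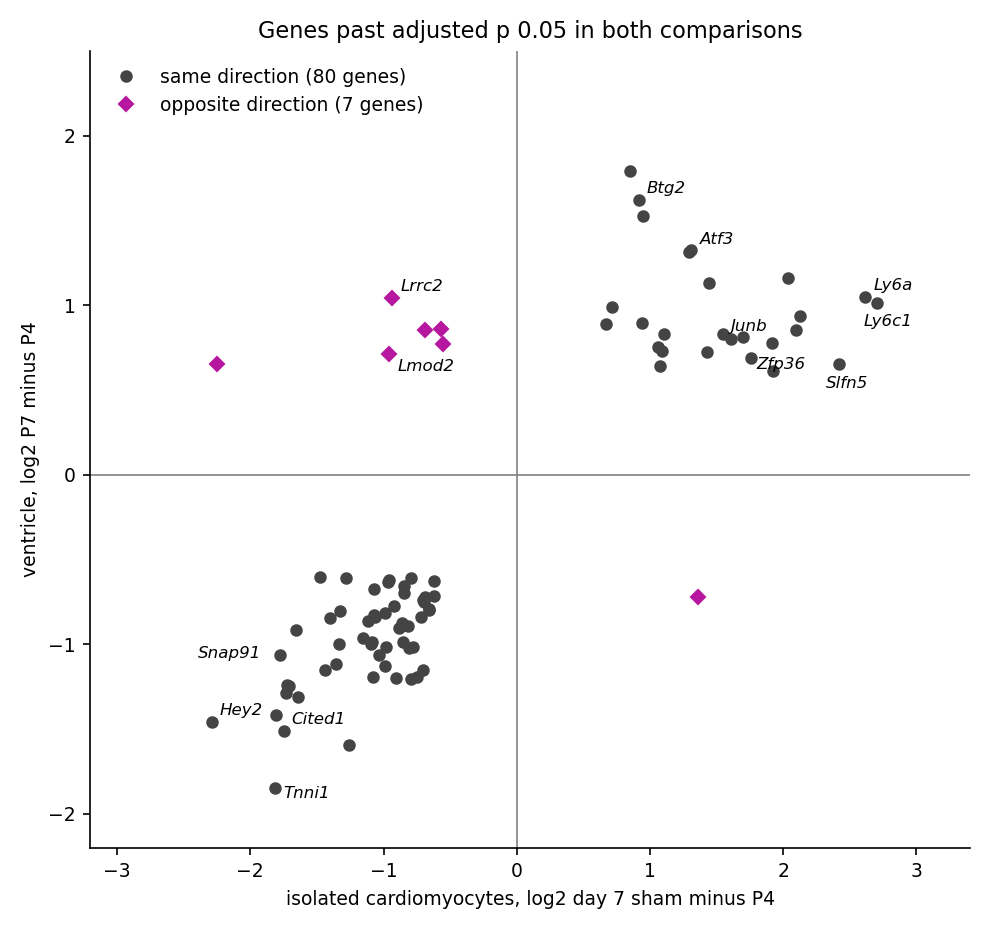
Log2 difference in isolated cardiomyocytes, day 7 sham minus P4 (horizontal axis), and in whole ventricle, P7 minus P4 (vertical axis), for the 87 genes past the threshold in both; each point is a gene. The 80 grey circles have the same direction in both, 54 of them lower, and the 7 purple diamonds the opposite one.

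Tnni1, Hey2 and Cited1 fell in both preparations. Tnni1 had 182 ± 61.8 FPKM in P7 ventricle and 639.6 ± 29.3 FPKM in P4 ventricle (SD, n = 2 each; log2 difference -1.85 ± 0.27 SE, limma adjusted p = 0.00699). The test of the difference between preparations (isolated minus ventricle) gave 0.04 ± 0.43 SE, limma adjusted p = 0.97. Hey2 had 5.02 ± 0.935 FPKM in P7 ventricle and 15.4 ± 1.22 FPKM in P4 ventricle (log2 difference -1.46 ± 0.19 SE, limma adjusted p = 0.00382). Cited1 had 7.66 ± 2.60 FPKM in P7 ventricle and 23.1 ± 0.336 FPKM in P4 ventricle (log2 difference -1.51 ± 0.30 SE, limma adjusted p = 0.0252). P7 was below P4 in each. Snap91, Ppp1r1b, Bmp7, Trim55, Plagl1, Igf2bp3, Tubb2b, Hmmr, Kif20a, Rfc4 and Rrm1 fell in both as well, with log2 differences between -0.60 and -1.59 in ventricle. The immediate early list had 10 of 23 higher in P7 ventricle and none lower, beside 0.678% of all genes higher there. Zfp36 had 10.8 ± 0.296 FPKM in P7 ventricle and 5.94 ± 0.826 FPKM in P4 ventricle (log2 difference 0.77 ± 0.17 SE, limma adjusted p = 0.0427). Btg2 had 33.0 ± 4.76 FPKM in P7 ventricle and 10.0 ± 1.10 FPKM in P4 ventricle (log2 difference 1.62 ± 0.16 SE, limma adjusted p = 0.000863). Atf3, Junb and Dusp1 rose too (log2 difference 1.32, 0.83 and 0.89). Fos averaged 188 ± 53.0 FPKM in day 7 sham cells and 117 ± 28.4 FPKM in P4 cells, against 4.58 ± 1.12 FPKM in P7 ventricle and 0.675 ± 0.0481 FPKM in P4 ventricle, so both isolated groups lay far above both ventricle groups. Ly6a, Ly6c1 and Slfn5 rose in ventricle as well (log2 difference 1.05, 1.01 and 0.65), with no interaction past the threshold. The rest of the 12 largest increases did not pass in ventricle, with log2 differences between -0.10 (Nts) and 0.54 (Ifi203). Among them, Socs3 had 1.36 ± 0.00906 FPKM in P7 ventricle and 1.44 ± 0.348 FPKM in P4 ventricle.

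Mitosis genes gave more calls in ventricle, and metabolic genes fewer, though the differences were not past the threshold. Of the 37 mitosis genes 15 fell in P7 ventricle (median -0.88), where 1.23% of all genes fell. In isolated cells 5 fell, where 27.4% of all genes fell. No interaction among the mitosis genes passed. In ventricle no gene of the fatty acid or respiratory chain lists passed in either direction (medians 0.10 and -0.01), where 1.9% of all genes passed. Cpt1b had 188 ± 6.44 FPKM in P7 ventricle and 192 ± 30.2 FPKM in P4 ventricle. Ndufb9 had 474 ± 8.78 FPKM in P7 ventricle and 485 ± 24.1 FPKM in P4 ventricle. For both genes the test of the difference between preparations did not pass (log2 difference of differences, isolated minus ventricle, -1.46 ± 0.45 SE, limma adjusted p = 0.112 for Cpt1b and -1.26 ± 0.41 SE, limma adjusted p = 0.119 for Ndufb9). Myl7 was low in both ventricle groups (7.16 ± 8.40 FPKM in P7 ventricle and 5.24 ± 1.92 FPKM in P4 ventricle). Rpl3l rose in ventricle (46.6 ± 8.07 FPKM in P7 ventricle and 22.1 ± 7.17 FPKM in P4 ventricle, log2 difference 1.07 ± 0.21 SE, limma adjusted p = 0.0243). Over all genes the interaction passed for 3 (0.0242%), all lower in the isolated comparison. That direction held as deposited and not under each scaling. Median of ratios called 1 higher and none lower, none of the 3 among them, and quantile normalization 30 higher and 16 lower with 2 of the 3. Leaving out isolated P4 library 3 gave 353 higher and 649 lower, and leaving out day 7 sham library 3 gave 14 and 513, while 0 passed without isolated day 7 sham library 2, isolated P4 library 2, P7 ventricle library 2 or either P4 ventricle library. Sesn1, a stress-induced regulator of growth signalling, had 10.4, 8.97 and 8.17 FPKM in the day 7 sham libraries, against 20.3, 19.5 and 14.5 FPKM in the P4 libraries. In tissue it had 32.1 ± 0.956 FPKM in P7 ventricle and 23.6 ± 0.111 FPKM in P4 ventricle, an interaction of -1.33 ± 0.22 SE, limma adjusted p = 0.0281. Chrm2, the muscarinic receptor through which the vagus slows the heart, had 6.43, 4.66 and 4.16 FPKM in the day 7 sham libraries, against 14.4, 14.2 and 11.96 FPKM in the P4 libraries. It had 20.9 ± 0.579 FPKM in P7 ventricle and 18.2 ± 0.503 FPKM in P4 ventricle, an interaction of -1.46 ± 0.23 SE, limma adjusted p = 0.0281. The third, Gm5532, an unnamed model, had an interaction of -1.43 ± 0.25 SE, limma adjusted p = 0.0481. Under median of ratios the interaction was -1.14 for Sesn1 (adjusted p = 0.0648), -1.29 for Chrm2 (adjusted p = 0.0648) and -1.24 for Gm5532 (adjusted p = 0.0775, limma). Among the 7 genes called in opposite directions were Lmod2, an actin nucleator of the thin filament, and Lrrc2, a leucine-rich repeat protein. In isolated cells neither kept its call under the other 2 scalings. Nor did their interactions pass (adjusted p = 0.103 for Lmod2 and 0.092 for Lrrc2, limma). Lmod2 averaged 31.8 ± 8.75 FPKM in day 7 sham cells and 62.5 ± 16.2 FPKM in P4 cells, and 107 ± 3.72 FPKM in P7 ventricle and 65.2 ± 4.68 FPKM in P4 ventricle. Lrrc2 averaged 3.21 ± 0.472 FPKM in day 7 sham cells and 7.68 ± 4.43 FPKM in P4 cells, and 15.5 ± 1.05 FPKM in P7 ventricle and 7.40 ± 3.61 FPKM in P4 ventricle. Lmod2, Lrrc2, Junb, Dusp1, Fos, Egr1, Sesn1, Chrm2 and Gm5532 were chosen after their values were seen.

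The ventricle libraries taken 7 days after a sham operation stood apart from the others. No mitochondrial tRNA was listed above 0 in either of them, against a sum of 498 and 543 FPKM in the P4 ventricle libraries, and their total was 642860 to 684130 FPKM, against 450077 to 453865. In that comparison 1982 genes were higher (16%) and 4130 lower (33.3%), 49.3% in all. Its difference from the isolated comparison passed for 4823 genes (38.9%), 2204 higher (17.8%) and 2619 lower (21.1%). Sample handling and condition cannot be told apart there, and no gene is described from it.

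Levels at P0 and after resection place the comparison in its series. Between P0 and P4 isolated cells 1 gene passed (0.00807%; limma, with P4 libraries shared with the comparison above). The P4 libraries were uneven, so the lack of calls does not show that cells at P0 and P4 were alike. Tnni1 had 929 ± 92.7 FPKM at P0, 890.3 ± 270.4 FPKM at P4 and 248 ± 51.8 FPKM at day 7 sham, and 206 ± 66.6 FPKM in cells 7 days after resection. Hey2 had 29.9 ± 6.003 FPKM at P0, 17.7 ± 6.59 FPKM at P4 and 2.80 ± 1.37 FPKM at day 7 sham, and 2.73 ± 0.836 FPKM after resection. Cited1 had 39.9 ± 3.72 FPKM at P0, 25.8 ± 5.58 FPKM at P4 and 7.03 ± 2.08 FPKM at day 7 sham, and 8.75 ± 2.61 FPKM after resection. For these 3 both day 7 means lay below the means of both earlier ages. Socs3 had 7.95 ± 4.14 FPKM at P0, 11.6 ± 9.41 FPKM at P4 and 55.3 ± 9.82 FPKM at day 7 sham, and 41.1 ± 24.3 FPKM after resection. Nppa, in contrast, had 324 ± 10.8 FPKM at P0, 267 ± 266 FPKM at P4 and 53.6 ± 25.3 FPKM at day 7 sham, and 495 ± 98.7 FPKM after resection. Myl7 had 98.0 ± 27.0 FPKM at P0, 151 ± 197 FPKM at P4 and 3.67 ± 2.63 FPKM at day 7 sham, and 246 ± 125 FPKM after resection (mean ± SD, n = 3 each). For both atrial genes the sham cells had the lowest of the 4 means.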

How the data were processed

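Per the labels, total RNA was extracted with Trizol. The submitters' processing notes name Cufflinks 1.2.1 and Cuffdiff, with TopHat 1.3.2 and Bowtie 0.12.7, and the mouse build mm9, and the annotation is not given in the sources used here. The deposited values are FPKM per gene model, made by the authors, so read counts and depth are unknown. Of the symbols, 23 that a spreadsheet had turned into dates were restored from their Ensembl identifiers.

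From these values log2(FPKM + 1) was computed, genes with at least 1 FPKM in at least 2 of the 6 libraries were kept, and group means over the 12 isolated libraries were fitted with limma 3.58.1 (R 4.3.3, moderated by a trend with level). P-values were two-sided and adjusted by Benjamini-Hochberg over all 12395 genes, with a threshold of 0.05. The difference from ventricle was an interaction in a fit over 28 libraries. Single ratios and marker levels had exact permutation tests. The procedure was tested on simulated data.

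The genes, lists and rules were chosen with earlier results of these data known. Named genes were the 12 called genes with the largest rise and the 12 with the largest fall (a group mean of at least 5 FPKM, no overlap), for each list the 3 called genes with the largest change or, with none called, the 2 with the smallest p, and a set of known maturation genes. Scaling, pseudocount, filter, fit, replicate block and single libraries left out were tried as alternatives. Some items are not reported here.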

Additional observations from a re-analysis of the deposited data

Results flagged for a closer look

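The isolated and ventricle comparisons differed by a test of the difference itself at 3 genes when P7 ventricle was set against P4 ventricle. Sesn1 differed by -1.33, Chrm2 by -1.46 and Gm5532 by -1.43 on the log2 scale (isolated minus ventricle; limma, adjusted p = 0.028 for Sesn1, 0.028 for Chrm2 and 0.048 for Gm5532), each lower in day 7 sham than in P4 cells and with a positive estimate in P7 over P4 ventricle. Under median of ratios none of the 3 passed (adjusted p = 0.0648, 0.0648 and 0.0775, limma), and under quantile normalization Sesn1 and Chrm2 did. With the ventricle libraries taken 7 days after a sham operation, the difference passed at 4823 genes. Those libraries stood apart in their totals and mitochondrial tRNA, and their part in that count was not tested.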

How the results depend on the processing

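The count of 4026 genes (628 higher, 3398 lower) became 2441 without a filter on low values (223 higher, 2218 lower), 2264 under median of ratios (1540 higher, 724 lower), 2442 under quantile normalization (1231 higher, 1211 lower), 1 under cardiomyocyte marker scaling (1 higher, 0 lower), an alternative added after the data were seen, and 943 at 2-fold or more (411 higher, 532 lower). With the compared groups alone 1012 were higher, and with all 36 libraries 1118. Leaving out 1 library gave 0 to 5380 genes, 0 to 999 higher and 0 to 5027 lower. P7 against P4 ventricle, 236 genes, became 120 with a pseudocount of 0.1, 444 under quantile normalization, 65 with those groups alone, 25 with all 36 libraries, 153 under cardiomyocyte marker scaling, 85 at 2-fold and 6 to 108 without 1 library. The 3 differences from it, all lower, became 11 without a filter (2 higher, 9 lower), 1 under median of ratios (higher, Gm4887), 46 under quantile normalization (30 higher, 16 lower), 0 with the groups alone, 1 with all 36 libraries (lower), 1 under cardiomyocyte marker scaling (higher) and 0 to 1002 without 1 library. Day 7 sham against P4 ventricle gave 2394 at 2-fold and 4616 to 5162 without 1 library, and its difference from the isolated cells 3497 to 5241. Log2 differences turned in sign under cardiomyocyte marker scaling for Myh6 (0.0482), Cpt1a (0.132), Cox8b (0.00746), Slc2a1 (0.128), Slc2a4 (0.0199), Ckb (0.138), Ak1 (0.0835), Rpl3 (0.49), Rpl3l (0.771), Rpl38 (0.0716), Rps27l (0.192), Spc25 (0.115), Rrm1 (0.0702), Ccnb1 (0.30), Mki67 (0.71) and Gm5532 (0.227). Myh6 is itself among the genes that cardiomyocyte marker scaling uses, so its value there is no separate result. Median of ratios turned Rpl3 (0.0306), Rpl3l (0.261) and Mki67 (0.223), and quantile normalization Rpl3l (0.191) and Mki67 (0.118). With 1 library left out, Rpl3l ranged over -0.239 to 0.0402, turning without P4 library 2 or day 7 sham library 3. Mki67 ranged over -0.356 to 0.201, turning without P4 library 3 or day 7 sham library 2, and Lum over -0.229 to 1.3, turning without day 7 sham library 3. Differences in marker level then ranged over -0.303 to 1.08 for fibroblast, -0.296 to 0.204 for smooth muscle and -0.283 to 0.456 for epicardial markers, each negative without day 7 sham library 3 and the last 2 also without P4 library 1, and over -0.0294 to 0.0146 for liver markers. Schwann and liver markers turned under median of ratios (0.0145 and 0.000647) and quantile normalization (0.000156 and 0.026). The cause was not tested. Same-numbered libraries of the 2 groups correlated at 0.254, -0.214 and 0.0666 in their deviations, so the numbers do not pair them, and a replicate block gave 4035 genes (521 higher, 3514 lower). Over named genes and settings, 1374 values kept direction and side of the threshold, 39 gained a call, 652 lost it and 26 turned. Depth is unknown, and precision at low FPKM cannot be given.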
